A study of Mus musculus with 2 samples.

Results

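The cytosolic ribosomal protein genes are the genes for the proteins of the small (Rps) and the large (Rpl) subunit of the ribosome that translates nuclear messenger RNA. They were chosen by name alone: a non-control probe counted when its gene name was Rps or Rpl followed by a number and at most 1 further letter (a, l or x), or was Rplp0, Rplp1, Rplp2 or Rpsa. This gave 81 of 37074 gene names (many of the latter are transcript identifiers), 32 of the small and 49 of the large subunit, and 176 of 56605 probes. All 81 symbols were found in the RefSeq gene table. The genes are scattered over the genome, with the most on 1 chromosome being 14, on chromosome 7.

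The ribosome is built in the nucleolus from ribosomal RNA and about equal copies of its proteins, so cells keep the messenger RNAs of these proteins at high and closely matched levels. Most of them begin with a 5′ terminal oligopyrimidine (TOP) tract, through which the growth kinase mTORC1 and the RNA-binding protein LARP1 set their translation and stability. In sensory neurons ribosomes lie in the cell body and also in axons, where local translation is known to take part in growth and repair.

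RNA came from dorsal root ganglion (DRG) neurons of C57BL/6 mice, and each of 2 samples was hybridised to 1 one-colour Agilent array. The control mouse was Dock8+/- and the other Dock8-/-. Both carried the AND T cell receptor transgene, written (tcr)AND Tg in the labels, so the transgene is common to both groups and neither is an unmodified wild type. The labels give the Dock8+/- sample a low and the Dock8-/- sample a high level of IL-31, an itch cytokine. Age, sex, the number of mice pooled and the way neurons were separated from other ganglion cells are not given in the sources used here. With 1 array per genotype there is no test, no error between animals and no p-value, and every difference below is between those 2 arrays.

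Processed intensity was taken as log2 and each array's 75th percentile over non-control probes (304 on the Dock8+/- array, 146 on the Dock8-/- array) was subtracted. A log2 difference is the scaled Dock8-/- value minus the scaled Dock8+/- value, so 0 means the same level relative to the array, and linear intensities are given unscaled. A gene counts as measured when its brightest probe without a GA or GAA repeat was well above background on both arrays. All 10 neuronal markers were measured (median difference 0.06, summed intensity 394669 and 181114). Markers of other cells were also measured and differed more: all 6 fibroblast markers were lower on the Dock8-/- array (median -2.28, summed intensity 253576 and 37148), as were all 6 macrophage markers (median -1.82, 38396 and 4373), whereas the 6 satellite glia markers ranged from -2.21 to 1.75. In bulk RNA, fewer cells of a type and less RNA per cell cannot be told apart. The part of these markers in the ribosomal values was not tested. The targeted gene, Dock8, was dim in both samples: 1 of its 5 probes passed background in the control (20.5 against 6.87 in Dock8-/-) and none in Dock8-/-, and where these probes lie relative to the deletion was not analysed here.

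The ribosomal protein genes stood at nearly the same relative level on both arrays. Of the 81 genes, 77 were measured, and their median log2 difference was -0.01, beside 0.03 over all 18502 measured genes. The lowest was -0.43 (Rpl5) and the highest 0.54 (Rpl38), with 38 genes above and 39 below 0. None of the 77 was 2-fold higher in Dock8-/- and none was 2-fold lower, where 8.72% and 7.07% of all measured genes were. None reached 1.5-fold in either direction, against 20.6% of all measured genes higher and 17.0% lower by that much. The SD over genes was 0.193 for the ribosomal protein genes and 0.760 for all measured genes.

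The probes of these genes are bright. Their linear intensity ran from 3275 to 122191 on the Dock8+/- array (median 38836) and from 1660.1 to 63609 on the Dock8-/- array (median 18534), and 14 of the 100 brightest measured genes were among them. Against the 2844 other genes within the same range of mean signal, a set chosen after the values were seen, the SD was 0.193 to 0.561. Separated by name alone, that set also holds ribosomal proteins outside the rule, such as Fau. It holds some probes that share at least 30 consecutive bases with probes of the family, too. Although it spans the same range, its median scaled log2 signal was 4.59 against 6.97, and 2551 of it lay in the range of the dimmest 26 ribosomal genes. In the range of the brightest 25 ribosomal genes, the 91 other genes had an SD of 0.486. Of the 2844 other genes, 4.36% were 2-fold higher and 2.85% were 2-fold lower. Scatter between spots of 1 probe was smaller than either spread. For the 64 ribosomal probes printed as 10 spots, the SD of a difference between single spots was 0.0595 on the log2 scale. Probes of 1 gene differed more. In the 54 ribosomal genes with at least 2 measured probes, the range of the difference had a median of 0.20, beside the family's SD of 0.193.

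**Figure D1:**
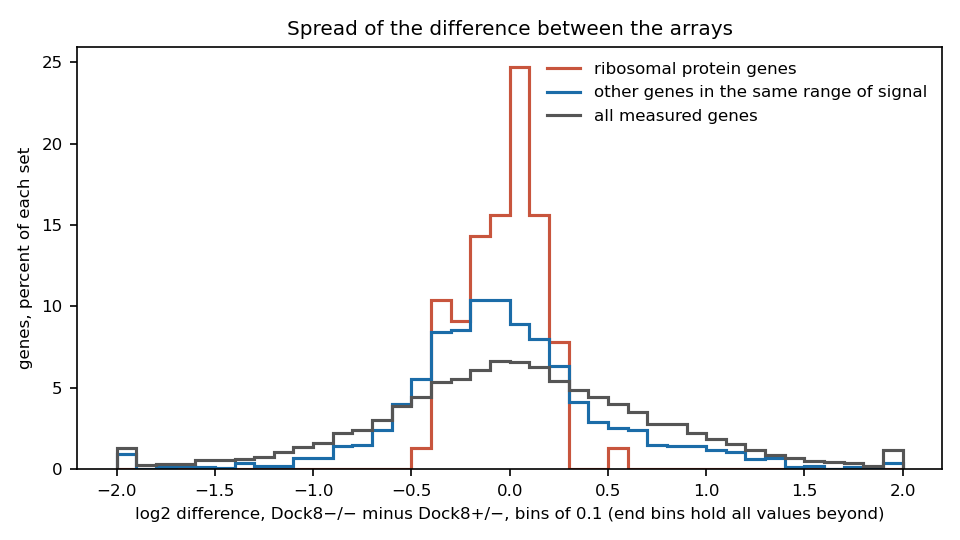
Share of genes (percent of each set, vertical axis) in bins of 0.1 of the log2 difference, Dock8-/- minus Dock8+/-, for 77 ribosomal protein genes, 2844 other genes in the same range of signal and all 18502 measured genes. The ribosomal protein genes lie between -0.43 and 0.54, inside the other distributions.

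Scaling set the level of the whole family. The spike-in transcripts, added to the RNA of each sample before labelling, were 0.48 to 1.03 log2 units brighter on the Dock8-/- array before scaling (8 of 10 probes usable), although the 75th percentile of the other probes was lower there. Scaled to the spike-ins, all 77 ribosomal protein genes were at least 2-fold lower (median -1.88), as were 16356 of the 18502 measured genes (median -1.85). By the array median in place of the 75th percentile, the ribosomal median was -0.24 beside -0.20 for all measured genes. All-gene counts past 2-fold were then 920 higher and 2124 lower, against 1614 and 1309 under the 75th percentile, and 21 higher and 16356 lower with spike-ins. Directions below are therefore those under percentile scaling.

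The 8 lowest values held 7 proteins of the large subunit and 1 of the small, where the 77 measured genes held 45 and 32. All 8 lay in the signal range of the family's dimmest 26 genes, whose median difference was -0.21. Rpl5, which with Rpl11 and 5S ribosomal RNA forms a particle of the large subunit, had intensities of 15136 and 5394, a difference of -0.43. Both of its measured probes gave nearly the same value (-0.43 and -0.42). The brighter probe lies at chr5:108332845-108332904 (mm9). Rpl11, its partner, was at 75289 and 37717, a difference of 0.06, so the 2 partners lay 0.49 apart. The signal of Rpl11 lay in the range of the family's brightest 25 genes, whose median difference was 0.08.

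Rpl7, a large-subunit protein, had 27477 and 9991 (difference -0.40), and a second probe of the same transcript, nearer the 3′ end, read -0.18. Rpl7a, another large-subunit protein despite the similar name, had 25317 and 9219 (-0.40). Its second probe, at 22640.1 and 9572 and nearer the 3′ end, read -0.18. Rplp0, the base of the stalk that recruits elongation factors, had 31185 and 11691 (-0.35). In each of these 3 genes the Dock8-/- array had the lower scaled level.

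Rps2, at the messenger RNA entry of the small subunit, had 10354 and 3899 (-0.35). Its brightest probe is placed by the files at chr17:42864841-42864900 (mm9), far from its other measured probe at chr17:24857583-24857642, which read -0.80. Rpl4, whose extension lines the exit tunnel, had 32739 and 12485 (-0.33). Rpl15, among the genes mutated in Diamond-Blackfan anaemia, had 19336 and 7435 (-0.32), and Rpl23a, at the tunnel exit, had 17289 and 6658 (-0.32). The second probe of Rpl15 read -0.56 and that of Rpl23a -0.29.

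The 8 highest values were evenly shared, 4 from each subunit, where 32 small-subunit and 45 large-subunit genes were measured. Rpl38, a small protein of the large subunit whose loss alters axial patterning in mice, stood apart at 91253 and 63609, a difference of 0.54 (1.45-fold). It has 1 probe and 1 spot per array, at chr11:114533580-114533639 (mm9), so no second reading of it exists. The difference ranged from 0.30 to 0.57 under the 6 alternatives of scaling, background correction or deposited values without spike-ins, and was -1.34 with spike-ins.

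Rpsa, the small-subunit protein also known as the laminin receptor precursor, came next with 51069 and 29986 (0.29), and its second probe read 0.14. Rps21, which contacts Rpsa, had 51232 and 29631 (0.27). Rps28, near the messenger RNA exit, had 46893 and 26979.8 (0.26), and its other 2 probes read 0.16 and 0.17. All 3 had the higher scaled level on the Dock8-/- array.

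Rpl34 had 38956 and 22114 (0.24), with a spot SD of 0.0177 on the Dock8+/- array. Rpl35a, another Diamond-Blackfan anaemia gene, had 35012 and 19864 (0.24), and its second probe read 0.08. Rpl39, the small protein inside the exit tunnel, had 62957 and 35053 (0.22), and its 5 probes ran from 0.14 to 0.25. Rps15a had 20651 and 11295 (0.19), and its other measured probes read 0.04 and 0.07. Under those 6 alternatives Rpl35a, Rpl39 and Rps15a came down to -0.01, -0.07 and -0.04.

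**Figure D2:**
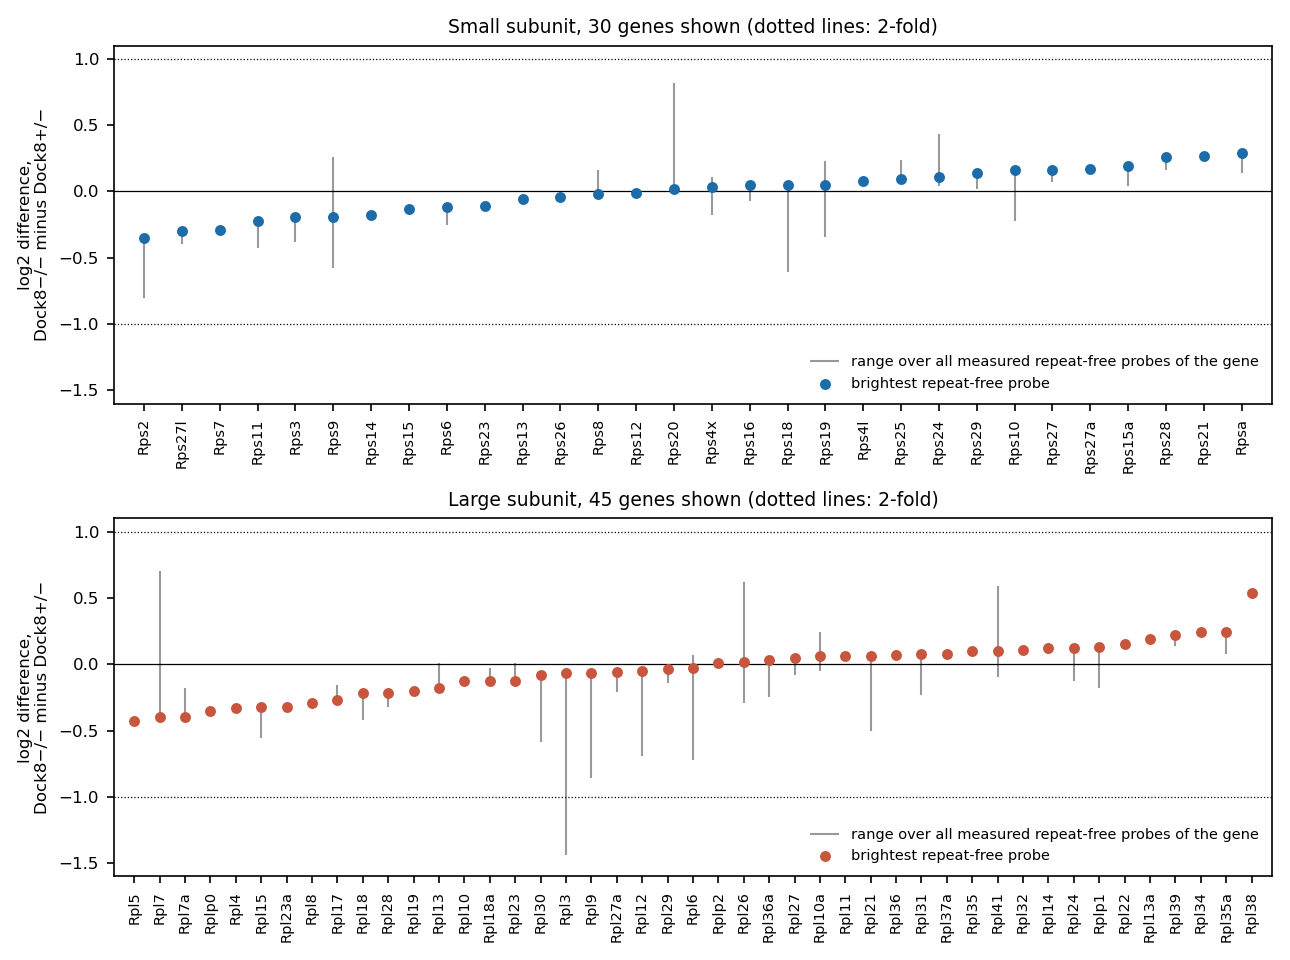
Log2 difference of intensity, Dock8-/- minus Dock8+/- (vertical axis), for 30 small-subunit (above) and 45 large-subunit (below) genes in ascending order. Points are the brightest repeat-free probe, grey lines the range over all measured repeat-free probes of the gene, and dotted lines mark 2-fold; no point reaches them, and the Rpl3 line reaches -1.44.

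The values of the small and the large subunit overlapped widely. The 32 measured small-subunit genes had a median difference of 0.01 (range -0.35 to 0.29, 16 above and 16 below 0). The 45 measured large-subunit genes had -0.03 (range -0.43 to 0.54, 22 above and 23 below 0). The gap between the medians was 0.04, and over all alternatives it ran from 0.00 to 0.08.

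Groups by place or role on the ribosome had medians from -0.18 to 0.06. The lowest was that of the 5S particle, which is Rpl5 and Rpl11 alone. The 4 proteins of the stalk and its base had a median of -0.02. Rplp1, an acidic stalk protein, was at 110879 and 57980.4 (0.13) at a probe with 1 spot. Its other measured probes went the other way, at -0.13 (51940.2 and 22719, 10 spots) and -0.18 (45932 and 19482). Its partner Rplp2 was at 65824 and 31818 (0.01). The 8 proteins at the rim of the exit tunnel had 0.05 (range -0.32 to 0.22). The 6 proteins around messenger RNA entry and exit on the small subunit had -0.11, with Rps2 lowest and Rpsa highest. The 18 Diamond-Blackfan anaemia genes had 0.06, with 12 above 0. Among them Rps19, the most often mutated in that disease, was at 56021 and 27869.8 (0.05), and its other measured probes read -0.34 and 0.23.

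Rps6, the small-subunit protein phosphorylated by the S6 kinases downstream of mTORC1, was at 24535 and 10794 (-0.12), and its second probe read -0.25. Rps27a, made as a fusion with ubiquitin, was at 82755 and 44602 (0.17). Rpl41, the smallest protein of the family, was the brightest gene at 122191 and 62672 (0.10). Its other measured probes read -0.10 and, at low signal, 0.59.

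The difference varied with signal within the family. Across the 77 genes it correlated with mean signal (Pearson r = 0.54, a description across genes that share both arrays). The dimmest 26 genes had a median of -0.21 with 21 below 0, the middle 26 had -0.01 with 13 below 0, and the brightest 25 had 0.08 with 20 above 0. Other genes in the same signal ranges had medians of -0.08, 0.02 and 0.14, and their r over the whole range was 0.09. Base composition did not track it: r with the GC content of the probe was -0.08.

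**Figure D3:**
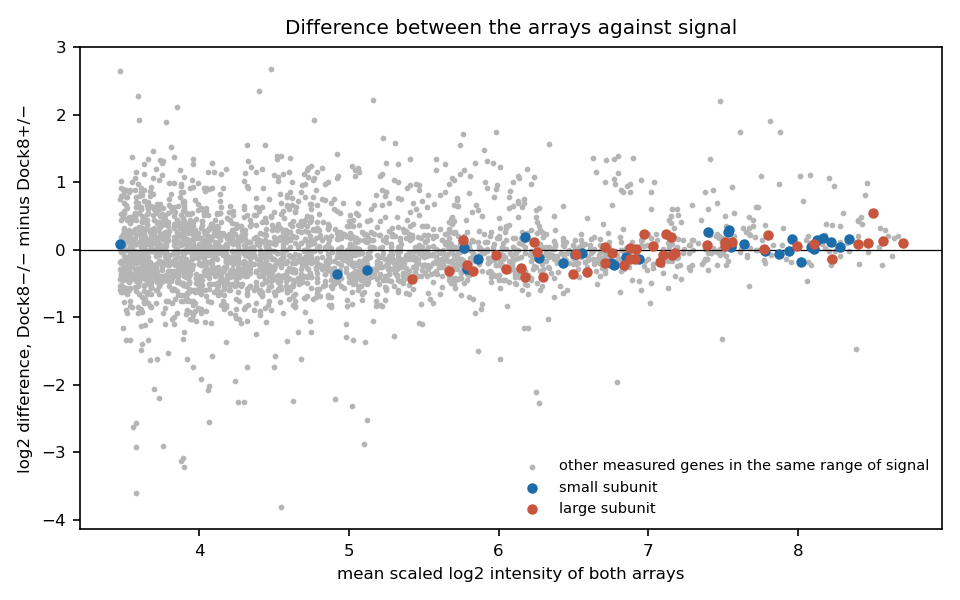
Log2 difference, Dock8-/- minus Dock8+/- (vertical axis), against the mean scaled log2 intensity of both arrays (horizontal axis) for small- and large-subunit genes and, in grey, 2844 other measured genes. Ribosomal points climb from a median of -0.21 in the dimmest 26 to 0.08 in the brightest 25.

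Probes nearer the 5′ end of a ribosomal transcript read lower on the Dock8-/- array than those nearer the 3′ end. In 39 genes, 2 or more measured probes of the same transcript began at least 60 genomic bases apart, introns included. The probe nearest the 5′ end read lower than the probe nearest the 3′ end in 33 of them (84.6%), with a median gap of -0.14. The 33 include Rpl13 and Rpl30, whose gaps were 0.00 after rounding, and Rplp1 and Rpl12, at -0.04 and -0.05. Small gaps the other way were those of Rpl39 (0.01) and Rpl23a (0.03). In some pairs, such as those of Rpsa and Rplp1, both counted among the 33, the genomic intervals of the 2 probes overlap. The 5′ probe was the dimmer one in 32 of the 39, and in 3115 of 3743 other genes. Of 3743 other genes, the 5′ probe read lower in 1655 (44.2%). That count includes 1195 with over 10000 genomic bases between probes (22.9%), a distance no ribosomal pair had. Without them, a limit chosen after the values were seen, it was 1381 of 2548 (54.2%). The share was 71.6% of those with under 500 genomic bases between probes, 58.9% from 500 to 2000 and 44.1% from 2000 to 10000. The ribosomal counts in those ranges were 9 of 13, 13 of 14 and 11 of 12. No measure of RNA quality was used here, and its part in this pattern was not tested.

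The widest gaps were seen in 3 large-subunit genes, whose probe sequences are shown because the pairs read different stretches of 1 transcript. They are given 5′ to 3′ as in the scanner files, all in lower case, and the mm9 intervals span introns where they exceed the 60 bases of a probe.
Rpl3 5′ probe: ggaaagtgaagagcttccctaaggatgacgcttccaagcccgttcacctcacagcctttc
Rpl3 3′ probe: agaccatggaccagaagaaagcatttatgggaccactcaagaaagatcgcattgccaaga
Rpl9 5′ probe: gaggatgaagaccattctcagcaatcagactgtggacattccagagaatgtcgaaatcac
Rpl9 3′ probe: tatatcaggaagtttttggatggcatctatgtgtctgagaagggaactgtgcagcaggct
Rpl6 5′ probe: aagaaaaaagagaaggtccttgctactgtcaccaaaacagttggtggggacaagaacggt
Rpl6 3′ probe: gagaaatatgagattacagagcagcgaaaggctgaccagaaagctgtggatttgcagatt

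Rpl3, a core protein near the peptidyl transferase centre, read 4645 and 819 at the 5′ probe (chr15:79912877-79912936), a difference of -1.44. At the 3′ probe (chr15:79908295-79908445) it read 42683 and 19517 (-0.07), and a middle probe with 10 spots also read -0.07. Only the 5′ probe was past 2-fold, and it was the dimmest of the 3.

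Rpl9, a large-subunit protein, read 1918 and 506 at the 5′ probe (chr5:65782084-65782617; -0.86) and 44607 and 20378 at the 3′ probe (chr5:65779821-65779879; -0.07). Rpl6 read 6893 and 1999.8 at the 5′ probe (chr5:121655775-121655834; -0.72), against 23559 and 11032 at the 3′ probe shown (chr5:121658582-121658847; -0.03), the brighter of its 2 probes near that end; the other read -0.05. In the small subunit, Rps18 read 6889 and 2168 at the 5′ probe (-0.61) and 92871 and 46086 at the 3′ probe (0.05).

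Not all genes followed. Rpl36a went the other way, with -0.08 at the 5′ and -0.25 at the 3′ probe, as did Rpl35a (0.24 and 0.08). Reading the most 5′ measured probe wherever a gene had several moved the family's median from -0.01 to -0.11 and put 1 gene, Rpl3, past 2-fold.

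**Figure D4:**
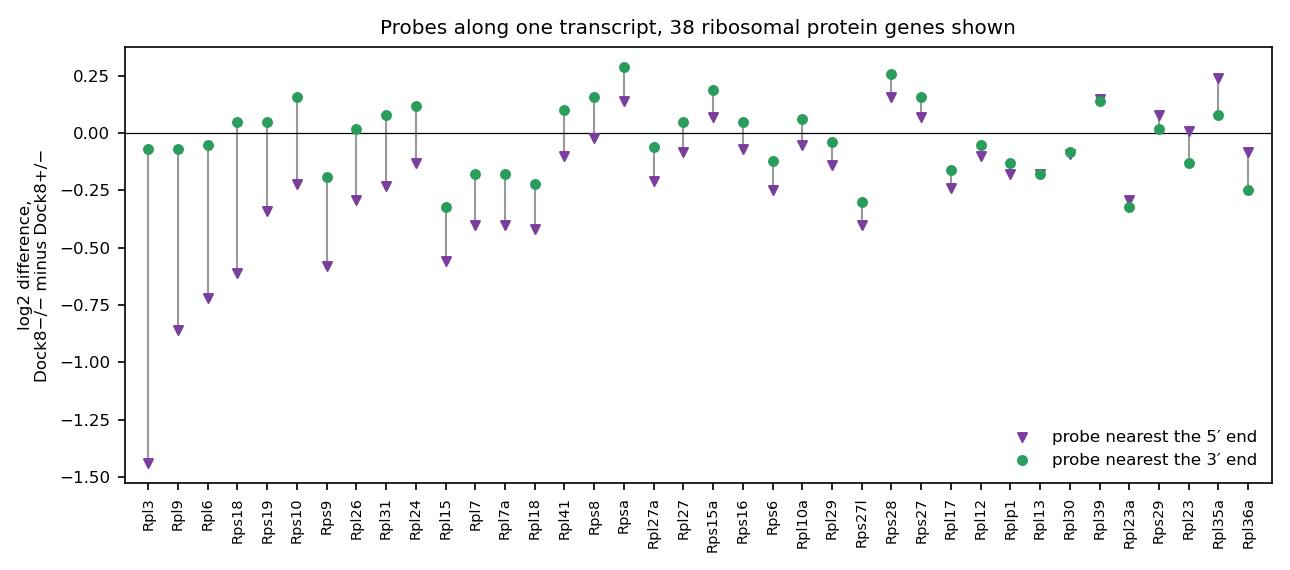
Log2 difference, Dock8-/- minus Dock8+/- (vertical axis), at the probe nearest the 5′ end (triangles) and nearest the 3′ end (circles) of one transcript for 38 of the 39 ribosomal protein genes. Triangles lie below circles in 32 of the 38, most widely in Rpl3, Rpl9 and Rpl6, and by 0.00 after rounding in Rpl13 and Rpl30.

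Probes of the same gene otherwise agreed more closely in this family than in other genes. In the 54 genes with at least 2 measured probes, the range of the difference had a median of 0.20, against 0.65 in 6096 other genes. Those other genes were not matched to the family for signal or for distance between probes. The median scaled log2 signal was 0.73 over all measured genes and 6.97 in the family. The part of signal and distance in the closer agreement was not tested. It exceeded 1 in 2 of the 54, Rpl3 and Rpl7, and in 1829 of the 6096. In Rpl7 the wide range came from a dim probe of another transcript (308 and 239.8, difference 0.70), while its 2 probes of the main transcript read -0.40 and -0.18. Probes of low signal were likewise the highest of their gene in Rps20 (144 and 122, 0.82), Rpl26 (39.1 and 28.7, 0.62) and Rpl41 (364 and 262, 0.59), and the lowest in Rpl12 (469 and 139, -0.69) and Rpl30 (544 and 173, -0.59). These genes were chosen after their values were seen.

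Ribosomal protein genes have many processed copies in the mouse genome, and the array carries probes to some of these. Probes under other names shared at least 30 consecutive bases with probes of 21 of the 81 genes, in 33 pairs. The 32 pairs without a repeat differed by a median of 0.03 and at most 0.12 in their log2 difference. Signal from a gene and from its copies can therefore not be told apart here. The pair for Rps12, a small-subunit protein, shows the overlap, with the 34 shared bases in capitals; the other probe is listed on chromosome X, at chrX:121071122-121071181 (mm9), and Rps12 on chromosome 10.
Rps12 probe: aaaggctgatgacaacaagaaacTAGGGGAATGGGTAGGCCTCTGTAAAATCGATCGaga
Other-name probe: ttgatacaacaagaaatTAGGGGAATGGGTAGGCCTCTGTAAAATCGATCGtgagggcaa
The Rps12 probe read -0.01 and the other probe 0.01. In addition, 7 probes of 4 genes (Rpl13, Rpl36, Rps27 and Rps29) are placed by the files on another chromosome than the gene itself.

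Rpl3l, the striated-muscle copy of Rpl3, passed background in the Dock8+/- sample alone (27.8 against 3.76). Skeletal muscle markers went the same way: all 7 passed background in Dock8+/- and 3 did in Dock8-/-, those 3 had a median of -3.94, and the summed intensity of the 7 was 8964 and 252. The part of muscle RNA in the Rpl3l reading was not tested.

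Rpl10l and Rpl39l, testis copies of Rpl10 and Rpl39, passed background in neither sample (4.20 and 3.52; 13.5 and 3.44). Rpl10 itself was at 95537 and 41772 (-0.13), and Rpl39 as given above. Rps27l, a copy of Rps27 induced by p53, was at 11755 and 4572 (-0.30), whereas Rps27 was at 71586 and 38325 (0.16) at a probe listed off its own chromosome. Rps4l, a copy of Rps4x, was at 3275 and 1660.1 (0.08); Rps4x was at 16405 and 8008 (0.03).

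Rpl37, a large-subunit gene that is no such copy, also had no usable reading. Its only probe read 25.3 in Dock8+/- and 9.46 in Dock8-/-, above background in the first alone. No fold is given for Rpl37 or Rpl3l, since the bound from background was under 1.

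An uninterrupted run of at least 8 pyrimidines (C or T, searched on the strand of the gene only) within 30 bases on either side of the RefSeq transcription start was found in 34 of the 60 ribosomal genes with a promoter in the table (56.7%). It was found in 25.8% of all 27025 genes there. The 5 longest runs from 20 bases before to 10 bases after the start are shown because TOP tracts are pyrimidine runs at the start of the RNA, with the run in capitals (RefSeq, GRCm38.p6). The start lies after base 20 of each window, so that most of the Rpl34, Rpl7a and Rpl14 runs lies before it. Whether the runs are transcribed was not tested.
Rpl7a start, chr2:26910787-26910816, plus strand: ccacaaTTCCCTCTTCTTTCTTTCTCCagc
Rpl34 start, chr3:130730328-130730357, minus strand: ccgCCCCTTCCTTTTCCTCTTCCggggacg
Rpl35 start, chr2:39005122-39005151, minus strand: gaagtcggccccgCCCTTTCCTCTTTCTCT
Rpl14 start, chr9:120571497-120571526, plus strand: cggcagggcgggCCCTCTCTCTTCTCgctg
Rpl15 start, chr14:18270977-18271006, minus strand: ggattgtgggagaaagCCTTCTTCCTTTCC
Their differences did not share a direction: Rpl7a -0.40, Rpl34 0.24, Rpl35 0.10, Rpl14 0.12 and Rpl15 -0.32. Measured genes with such a run had a median of 0.02 (n = 33) and those without one 0.03 (n = 23). Shorter runs were not counted, and a counted run need not lie at the start of the RNA. The split therefore does not separate genes with a TOP tract from genes without one.

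Some core ribosomal proteins have names the rule does not take. Fau, which encodes a small-subunit protein, was at 111842 and 54949 (0.04). Gnb2l1, now called Rack1, a scaffold on the small subunit, was at 45279 and 19275 (-0.17). Rps3a1, added after its value was seen, was at 26345 and 11546 (-0.13). Among copies outside the rule, Rpl22l1 read 0.18 and the dim Rpl7l1 (101 and 31.8) read -0.61.

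The ribosomal proteins of mitochondria were lower on the Dock8-/- array as a group. All 77 were measured, their median was -0.42, and 71 of 77 were below 0, beside 8940 of all 18502 measured genes. None was 2-fold higher and 2 were 2-fold lower, where 8.72% and 7.07% of all measured genes were. The 2 were Mrps11 at 459 and 93.3 (-1.24) and Mrpl35 at 209.6 and 47.1 (-1.09). Their probes had a median scaled log2 signal of 3.21, against 6.97 for the cytosolic set. The mitochondrial median lay below the cytosolic one under every scaling, filter and probe choice planned, by 0.21 to 0.43, with the smallest distance after quantile normalisation.

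Other genes of the TOP class varied more than the ribosomal ones around a similar median. The 29 measured had a median of 0.04 (range -0.40 to 0.83, SD 0.359). None was past 2-fold, beside 8.72% of all measured genes higher and 7.07% lower. Nap1l1, a histone chaperone, was highest at 4010.4 and 3406 (0.83). Snhg1, a host of small nucleolar RNAs, read 0.80, and Npm1, a nucleolar chaperone, read 0.78. The main elongation factors, named after their values were seen, lay within the ribosomal range: Eef1a1 -0.20 and Eef2 -0.26.

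Of 32 other translation factors (median 0.10), 1 was 2-fold lower and none 2-fold higher, beside 7.07% and 8.72% of all measured genes. The 1 counted as lower was Eef1a2, the elongation factor of neurons and muscle, at 2001 and 422 (-1.18). Eif4g2, an initiation factor, read 0.96, and Eef2k, the kinase that inhibits Eef2, read 0.70.

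Of 54 ribosome assembly genes (median -0.17), 1 was 2-fold higher and 2 were 2-fold lower, beside 8.72% and 7.07% of all measured genes. Nat10, an RNA acetyltransferase of the nucleolus, was at 254 and 295 (1.28). Nop16 was at 344 and 68.6 (-1.27), and Imp4, of the small-subunit processome, at 459 and 92.5 (-1.25). The 15 measured genes for RNA polymerase I and its factors, which transcribe ribosomal RNA, had a median of -0.18 and none was past 2-fold; Taf1c read -0.77, Twistnb 0.59 and Znrd1 -0.50.

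Of 31 mTORC1 pathway genes (median -0.02), 2 were 2-fold higher and 1 was 2-fold lower, beside 8.72% and 7.07% of all measured genes. Ddit4, an inhibitor of mTORC1 induced by stress, was at 9117 and 11066 (1.34), and Rheb, its activator, at 20520.2 and 21785 (1.15). Rps6kb2, an S6 kinase, was the 1 counted as 2-fold lower, at 133 and 31.9. Larp1, also named after its value was seen, read 0.34. Inhibitor and activator were thus both higher in relative level on the Dock8-/- array.

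Free Rpl5 and Rpl11 are known to stabilise p53 when ribosome assembly is disturbed. Of 15 measured p53 targets (median 0.23), 3 were 2-fold higher and 1 was 2-fold lower, where 8.72% and 7.07% of all measured genes were. Cdkn1a, the cell cycle inhibitor, was at 1445 and 2122 (1.62), Trp53inp1 at 378 and 458 (1.34), and Btg2 at 1236 and 234 (-1.34). The targets did not share a direction. Of 14 ribosome quality control genes (median -0.08), Ltn1, a ubiquitin ligase for stalled chains, read 1.24 and Zak, a sensor of ribosome collisions, 1.05, while Gtpbp1 read -0.76. Zak was dim, at 26.9 on the Dock8+/- and 26.7 on the Dock8-/- array. The lowest signals well above background there were 17.4 and 16.1. Apart from Ltn1 and Zak none of the 14 was past 2-fold, so 2 were 2-fold higher, beside 8.72% of all measured genes.

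**Figure D5:**
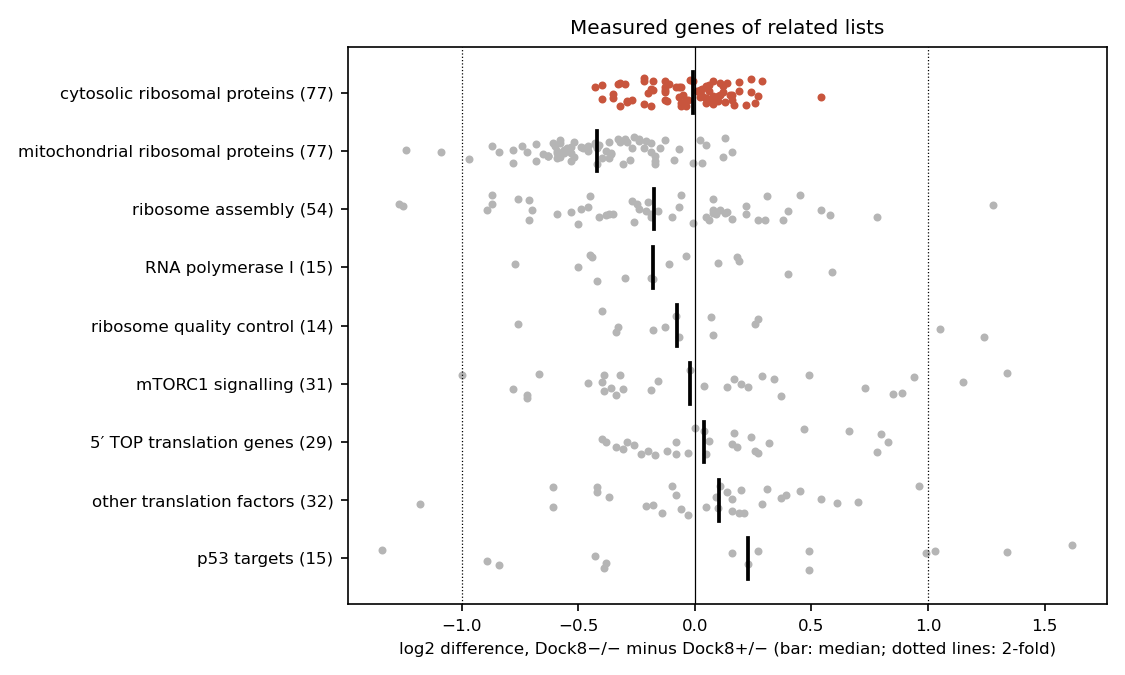
Log2 difference, Dock8-/- minus Dock8+/- (horizontal axis), for each measured gene of the cytosolic ribosomal proteins and 8 related lists, with the number of genes in parentheses and a bar at the median. Cytosolic ribosomal proteins cluster about -0.01, mitochondrial ones about -0.42.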

How the data were processed

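Spot intensity in the deposited scanner files is linear, and was background-subtracted and detrended by the authors with Agilent Feature Extraction (version 10.7.1.1 per the file headers, 9.5.1.1 per the submitters' processing notes). Both arrays lay on 1 slide. From these, log2 intensity was averaged over a probe's spots without non-uniform ones (3 and 1), and each array's 75th percentile was subtracted; 0 spots were saturated. Probes with at least 4 consecutive GA or GAA units on either strand were left out, and a gene took its brightest probe. Well above background is the scanner software's flag (56.9% and 50.7% of probes). Named genes were the 8 highest and 8 lowest, genes not measured, genes with probes over 1 apart, copies and their parents, chosen landmarks, the brightest and dimmest, and up to 3 per related list. Members and lists were chosen with earlier results of these data known. Positions are mm9 as in the files, and exon and UTR annotation was not used here. The deposited value table, quantile normalised, served as an alternative, with limma 3.58.1 for normexp (offset 50). The scripts were tested on simulated data. The number of arrays limits the precision. Some genes are not reported here by name.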

Additional observations from a re-analysis of the deposited data

How the results depend on the processing

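The family's median (-0.01; small subunit 0.01, large -0.03) depended on the scaling. It was -0.24 (-0.22 and -0.26) with the array median, -0.17 (-0.17 and -0.19) with quantile normalisation, -0.16 (-0.15 and -0.18) in the deposited value table, -0.24 (-0.22 and -0.27) after normexp, and -1.88 (-1.87 and -1.91) with spike-ins, where 77 genes were 2-fold lower. With a gene's dimmest probe it was -0.08 (large subunit -0.13), and with the most 5′ probe, chosen after seeing the data, -0.11 (-0.07 and -0.13). In those readings 1 gene was 2-fold lower, as it was (Rpl3l) with no filter on dim probes. The family's median minus the median of all measured genes was -0.03 in the main reading. It was -0.18 with quantile normalisation, -0.23 after normexp and -0.17 in the value table. With the mean of probes it was -0.13, with the dimmest probe -0.16 and with no filter -0.44. The causes were not tested. The SD over the family ran from 0.16 to 0.36 over all alternatives. No paired analysis was possible because each genotype has 1 array.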
